A study of Mus musculus with 9 samples.

Results

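The circular RNAs (circRNAs) described here were read in differentiating C2C12 cells and in no library of proliferating cells. The members were chosen by their read counts: a circRNA entered the set when its count was 0 in the 3 libraries of day 0 and above 0 in at least 3 of the 6 libraries of days 3 and 6. The set held 1226 of the 37751 circRNAs of the table (3.25%), from 864 of 6943 host genes (12.4%). C2C12 is a mouse myoblast line of skeletal muscle origin that all 9 libraries share. Cells were taken while proliferating below confluence in DMEM with 10% fetal bovine serum (day 0), and 3 or 6 days after confluent cells were given DMEM with 2% horse serum, in which myoblasts become myocytes and fuse into myotubes. Each day has 3 libraries, made from 1000 ng of RNA each, and the labels do not say whether they came from separate cultures, so the spread between them may be technical.

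A circRNA forms when the splicing machinery joins the end of a downstream exon (the donor end) to the start of an upstream exon (the acceptor end), so that the RNA closes into a loop without free ends. Such loops resist exonucleases and can build up in cells that no longer divide, and 1 gene often gives several loops that pair its exon ends in different ways. Muscle differentiation switches on sarcomere, calcium release and membrane repair genes, while cell cycle genes are switched off. Reads across the back-splice junction identify a circRNA, and each circRNA has 1 such junction whatever its length.

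The junctions of the 8 highest circRNAs of the set with both ends in coding exons are printed first, because the junction is what tells each loop from the linear transcript and from other loops of its host. Each line gives the last 30 bases of the donor exon in lower case and the first 30 bases of the acceptor exon, which follow them across the junction, in capitals, 5′ to 3′ on the strand of the host, from the GENCODE M21 transcripts (build GRCm38), and each run of 30 bases occurred once in its transcript.
Abca1 exons 3 to 5, chr4:53127597-53133015, minus strand: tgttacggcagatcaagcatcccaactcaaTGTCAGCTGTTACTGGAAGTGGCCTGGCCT
Ap3d1 exons 12 to 16, chr10:80715871-80719812, minus strand: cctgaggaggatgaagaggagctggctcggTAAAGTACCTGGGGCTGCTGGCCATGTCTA
Ttn exons 123 to 125, chr2:76854150-76856366, minus strand: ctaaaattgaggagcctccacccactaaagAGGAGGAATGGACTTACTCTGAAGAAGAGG
Ttn exons 139 to 147, chr2:76841768-76847808, minus strand: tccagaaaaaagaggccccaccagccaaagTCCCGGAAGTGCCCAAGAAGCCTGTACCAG
Nav2 exons 7 to 11, chr7:49452399-49491491, plus strand: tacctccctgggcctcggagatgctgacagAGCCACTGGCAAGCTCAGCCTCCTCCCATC
Dysf exons 31 to 40, chr6:84129471-84152409, plus strand: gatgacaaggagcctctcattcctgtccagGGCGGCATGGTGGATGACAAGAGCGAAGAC
Sh2d4b exons 2 to 6, chr14:40840225-40874239, minus strand: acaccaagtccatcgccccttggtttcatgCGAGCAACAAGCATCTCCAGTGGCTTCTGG
Lrch1 exons 10 to 15, chr14:74795297-74807541, minus strand: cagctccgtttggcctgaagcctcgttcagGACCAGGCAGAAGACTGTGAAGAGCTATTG

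For 6 of these 8 a loop read at day 0 on the same transcript shared an exon end with the member. Sh2d4b also had a day 0 loop with the acceptor end of its member, with 5 reads, which was not placed on 1 transcript. The next lines give, for the 6, the circRNA with the most day 0 reads that used the same acceptor or donor end on the same transcript. In Ap3d1, Nav2, Lrch1 and the first Ttn pair the capitals are those of the line above, and in Dysf and the second Ttn pair the lower case letters are.
Ap3d1 exons 12 to 23, chr10:80712112-80719812, minus strand: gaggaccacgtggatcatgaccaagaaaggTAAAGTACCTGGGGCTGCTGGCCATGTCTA
Ttn exons 123 to 127, chr2:76853605-76856366, minus strand: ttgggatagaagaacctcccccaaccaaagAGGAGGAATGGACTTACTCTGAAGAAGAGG
Ttn exons 144 to 147, chr2:76841768-76844279, minus strand: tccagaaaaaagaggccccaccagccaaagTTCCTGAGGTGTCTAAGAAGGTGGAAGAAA
Nav2 exons 7 to 8, chr7:49452399-49458208, plus strand: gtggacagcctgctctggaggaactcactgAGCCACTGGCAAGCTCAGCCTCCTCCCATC
Dysf exons 37 to 40, chr6:84149675-84152409, plus strand: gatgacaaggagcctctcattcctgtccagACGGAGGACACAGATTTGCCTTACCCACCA
Lrch1 exons 10 to 19, chr14:74775581-74807541, minus strand: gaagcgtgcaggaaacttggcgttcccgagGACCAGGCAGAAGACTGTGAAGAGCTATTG

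The 9 libraries held 208787 to 443955 back-splice reads each, and since reads are not counted as single molecules, intervals and floors here cover counting error only. Circles of muscle hosts marked the days: the summed level of 6 listed muscle marker hosts (Ttn, Ryr1, Tnnt1, Neb, Myh3 and Dysf, of 8 looked for) was 334 to 550 CPM at day 0, 10128 to 11909 CPM at day 3 and 11587 to 15544 CPM at day 6 (CPM, counts per 1e+06 reads after TMM scaling). The summed level of 6 proliferation hosts, among them Spag5 and Top2a, was 7037 to 9222 CPM at day 0, 1677 to 1900 CPM at day 3 and 609 to 916 CPM at day 6, and none of them hosted a circRNA of the set. Markers of reserve cells (4 of 6 listed) summed to 166 to 314, 189 to 372 and 178 to 264 CPM at days 0, 3 and 6, with Spry1 and Calcr not in the table. The sum joins hosts that went opposite ways. Pax7 was at 31.2 to 135 CPM at day 0 and 148 to 227 CPM at day 6, Notch3 at 100 to 147 and 0 to 89.8 CPM. Cd34 and Tenm4 had no reads in most libraries. Of the adipocyte markers 1 of 4 was listed, Pparg, with levels that overlapped between the days. In bulk RNA, fewer cells of a type and less RNA per cell cannot be told apart.

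Membership rested on few reads for most of the set. Of the 1226 circRNAs, 710 (57.9%) were listed in exactly 3 of the 6 libraries, 318 in 4, 148 in 5 and 50 in all 6. The median count in a library that listed one was 12 reads, the smallest was 2, and no count of 1 stands in the table. Members in exactly 3 libraries had a median of 35 reads in all (8 to 120), those in all 6 libraries a median of 168 (49 to 781). A count of 0 in the day 0 libraries allows up to 3 reads per library, a mean of 11.0 CPM, against a median level of 23.7 CPM for the set over days 3 and 6. Just inside the rule, with 3 libraries, the most reads were those of Sfmbt1 exons 6 to 10 (120 reads), Phf21a exons 2 to 9 (108) and Mbd2 exons 2 to 6 (98). Just outside it, in 2 libraries, circRNAs of Gigyf2, Rras2 and Zfp292 had 196, 189 and 159 reads, and 2259 circRNAs had no day 0 reads and 2 libraries. Another 85 met the day 3 and 6 side but had 1 to 3 reads at day 0, among them Stau2 exons 2 to 5 with 2 reads at day 0 and 987 later, and Tnnt1 exons 2 to 10 with 3 and 506.

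The same rule turned to the other days gave 755 circRNAs with no reads at day 3 and 1061 with none at day 6, against the 1226 with none at day 0. Where all 6 libraries of the other days had to list the circRNA, the numbers were 50 for an empty day 0, 4 for day 3 and 22 for day 6. An empty day 0 thus gave the most circRNAs at each limit, as a description with no test. With every library thinned to 208787 reads the 3 numbers were 1178, 749 and 1049. Leaving out single libraries moved the size of the set most for day 0 replicate 3 (1897 without it), the library with the most listed circRNAs (11119), and for day 6 replicate 3 (806 without it).

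**Figure D1:**
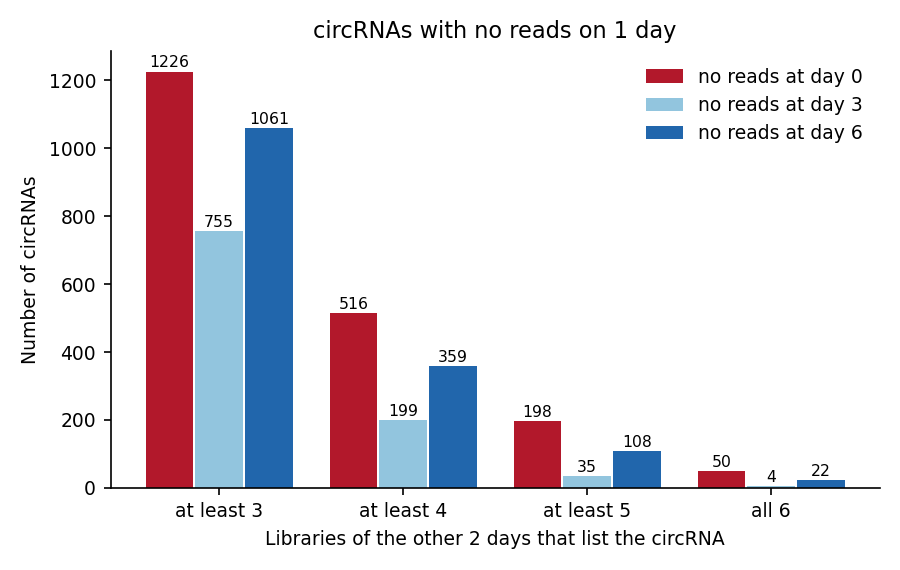
Number of circRNAs (vertical axis) with no reads on 1 day, by the least number of the 6 libraries of the other days that list them (horizontal axis), for an empty day 0, day 3 or day 6. An empty day 0 gives 1226 circRNAs with at least 3 libraries and 50 with all 6, against 755 and 4 for day 3 and 1061 and 22 for day 6.

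Members from 1 host share their gene, and reads were spread thinly: 666 hosts had 1 member, 198 had 2 or more and 14 had 5 or more. The 1226 circRNAs held 69779 reads, of which the 20 highest held 10.4%, and 30 reached a mean of 100 CPM. On both days 1152 (94.0%) were read, while 38 were read at day 3 alone and 36 at day 6 alone. The rule itself favours both days, since a member of 1 day has to be listed in exactly 3 libraries, all of that day. The one with the most reads for each day, picked after their values were seen, was Gsk3b exons 9 to 11 with 21, 19 and 51 reads at day 3 and Lrch1 exons 2 to 3 with 5, 23 and 38 reads at day 6. Gsk3b encodes a kinase of the Wnt and insulin pathways.

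Abca1, which encodes a transporter that exports cholesterol, hosted the highest member. Its circRNA of exons 3 to 5 had no reads at day 0, 91, 70 and 118 reads at day 3, and 103, 130 and 269 reads at day 6. These are 294 ± 50.3 CPM at day 3 and 542 ± 88.0 CPM at day 6 (SD, n = 3). The loop of exons 3 to 7 (chr4:53107006-53133015) had 30, 20 and 17 reads at day 3 and 29, 45 and 58 at day 6, and the loop of exons 2 to 5 (chr4:53127597-53144095) had 20, 35 and 28 and then 0, 26 and 66. The host was read at day 0: the remaining pairing of the same ends, exons 2 to 7, had 17 reads in replicate 2 and none in the others. These loops use the acceptor ends of exons 2 and 3 and the donor ends of exons 5 and 7, and 3 of their pairings belong to the set.

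Ap3d1, the gene of the delta subunit of the adaptor complex AP-3 that sorts cargo to lysosomes, gave a member that shares its acceptor end with a loop of day 0. Exons 12 to 16 had no reads at day 0, 61, 85 and 35 reads at day 3, and 147, 96 and 128 at day 6. Exons 12 to 23, with the same acceptor end, had 67, 37 and 11 reads at day 0, 14, 12 and 7 at day 3, and 0, 0 and 29 at day 6. Exons 17 to 23 were read on all days, with 82 reads at day 0 and 178 later. The member made up 68.5% of the 806 reads of Ap3d1 at days 3 and 6. At that share of the 237 reads of the host at day 0 it would have had 162 reads. This was the highest such number among the 1060 members whose hosts had circRNAs at day 0, and the count of 0 there was set by the rule.

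Ttn encodes titin, the giant elastic protein of the sarcomere, and gave 10 members, more than any other host. Exons 123 to 125 had 42, 69 and 100 reads at day 3 and 67, 39 and 234 at day 6. Exons 139 to 147 had 64, 81 and 64 reads at day 3 and 75, 57 and 69 at day 6. They lay beside a much larger circle, exons 123 to 127, which had 12, 0 and 8 reads at day 0 and 12452 at days 3 and 6 in sum. The 10 members held 1722 reads, 11.4% of the 15071 reads of the host at days 3 and 6. At the share that exons 123 to 125 took then (3.66%) the 32 day 0 reads of Ttn would give 1.17 reads for it, within what a count of 0 allows.

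Other members came from genes of calcium release, membrane repair and the cytoskeleton. Dysf encodes dysferlin, which reseals torn muscle membranes, and its loop of exons 31 to 40 had 59, 33 and 65 reads at day 3 and 39, 33 and 108 at day 6. Its day 0 loops used the same 2 ends with other partners, exons 37 to 40 with 92 reads and exons 31 to 36 with 17. Nav2, the gene of a cytoskeletal protein first described in neurons, gave exons 7 to 11 with 57, 28 and 54 reads at day 3 and 41, 63 and 136 at day 6. Fam53b exons 2 to 3 had 33, 59 and 46 reads at day 3 and 81, 76 and 64 at day 6, next to exons 2 to 4 with 42 reads at day 0 and 721 later. Lrch1 exons 10 to 15 had 39, 5 and 64 reads at day 3 and 40, 30 and 133 at day 6. Sh2d4b, the gene of an SH2 domain protein, gave exons 2 to 6 with 39, 0 and 35 reads at day 3 and 55, 87 and 85 at day 6. Ranbp9, which encodes a scaffold protein that binds Ran, gave exons 4 to 9 (chr13:43419576-43434981) with 38, 19 and 0 reads at day 3 and 27, 60 and 124 at day 6.

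Ryr1, the gene of the calcium release channel of the sarcoplasmic reticulum, hosted a member whose ends lie close to those of an abundant day 0 loop. It was deposited as intronic, chr7:29035962-29040893, and had 77, 54 and 59 reads at day 3 and 18, 43 and 70 at day 6. The exonic loop of exons 85 to 89 has the same acceptor end and a donor end 18 bases away, and it had 124, 52 and 32 reads at day 0 and 4705 at days 3 and 6. In Etv6, the gene of a transcriptional repressor, 3 intronic members shared 1 end and lay 4 and 32 bases apart at the other, with 460, 67 and 52 reads. In the whole set 47 circRNAs (3.83%) had a neighbour with 1 equal end and the other end within 50 bases, and for 26 (2.12%) such a neighbour was read at day 0. Whether such neighbours are separate splice choices or 1 choice aligned in different ways was not tested.

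**Figure D2:**
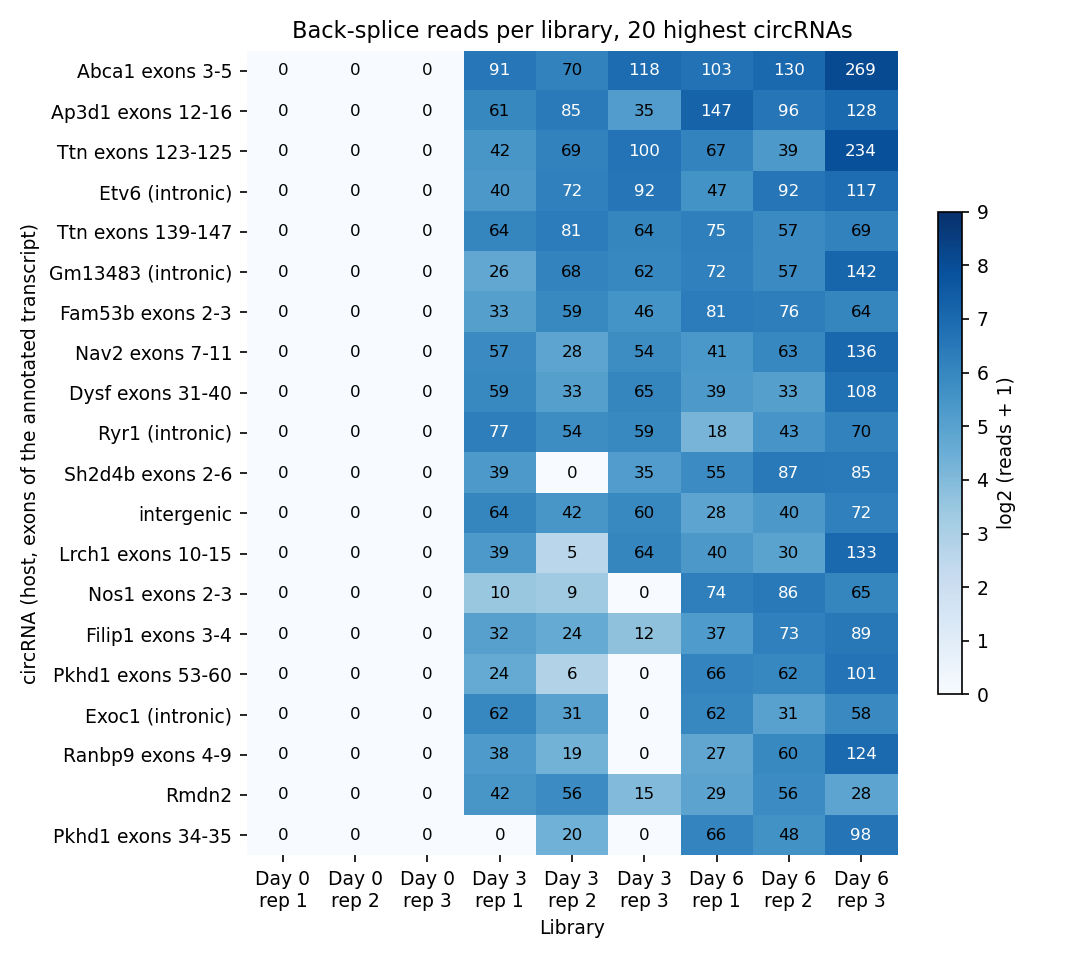
Back-splice reads in each of the 9 libraries (columns) for the 20 circRNAs of the set with the highest mean CPM over days 3 and 6 (rows, named by host and by exons of the annotated transcript where both ends were placed on 1). The numbers are reads and the shade is log2 (reads + 1); day 0 is 0 by the rule, Abca1 exons 3-5 reaches 269 reads in day 6 replicate 3, and Nos1 and the Pkhd1 loops have at most 24 reads in any day 3 library against 48 or more in each day 6 library.

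The next comparison was whether the hosts gave other circRNAs at day 0, linear RNA not being measured here. Most did: of 1193 members with a host, 1060 (88.9%, 748 hosts) came from a gene with at least 1 other circRNA at day 0, and the median of these hosts' members was 6 such circRNAs with 146 reads. The other 133 (11.1%, Wilson 95% interval 9.49 to 13.1, 116 hosts) came from genes with none. For circRNAs with no reads at day 3 the matching share was 10.3% (8.36 to 12.7) and for those with none at day 6 it was 13.9% (11.97 to 16.16), and the 3 intervals overlap. A circRNA of day 0 shared at least 1 end with 842 of the 1226 (68.7%, 66.0 to 71.2), and both ends, from different loops, were in use at day 0 for 263 (21.5%). The shares with 1 end were 70.3% (67.0 to 73.5) and 67.1% (64.2 to 69.9) for the sets empty at days 3 and 6.

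In hosts with circRNAs at day 0 a member took a median of 7.85% of the host's reads at days 3 and 6, and 76.0% in hosts without. If a member had held the same share of its host's reads at day 0, 405 of 1060 would have had under 10 reads there, 545 had 10 to 30, 108 had 30 to 100 and 2 had 100 or more. Those 2 were Ap3d1 exons 12 to 16 and a circRNA of Rmdn2, the gene of a microtubule-associated protein (chr17:79650302-79681682). The Rmdn2 loop had 42, 56 and 15 reads at day 3 and 29, 56 and 28 at day 6, while the loop of exons 3 to 5 with the same acceptor end had 173, 135 and 136 reads at day 0, 127, 186 and 91 at day 3, and 100, 160 and 40 at day 6. For the members with few reads at that share, a low host level and a loop not made at day 0 cannot be told apart at this depth. For the rest, too, the count of 0 was set by the rule, and its cause was not tested.

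The members from hosts with no day 0 circRNA were led by Nos1, the gene of neuronal nitric oxide synthase, which is held at the muscle membrane by the dystrophin complex. Its loop of exons 2 to 3 (chr5:117866839-117879410) had 10, 9 and 0 reads at day 3 and 74, 86 and 65 at day 6, and made up 85.9% of the 284 reads of the host. Filip1, which encodes a filamin-binding protein, gave exons 3 to 4 (chr9:79853622-79860253) with 32, 24 and 12 reads at day 3 and 37, 73 and 89 at day 6. The Filip1 loop was at least 6.75-fold above the day 0 floor of 3 reads per library at day 3 and at least 20.5-fold at day 6, and held 97.4% of the reads of its host. Insc, which encodes an adaptor for spindle orientation, gave exons 4 to 7 with 45, 38 and 16 reads at day 3 and 57, 19 and 31 at day 6.

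Pkhd1, the gene of the cilium protein fibrocystin, had 7 members and no circRNA at day 0. They held 715 of its 919 reads (77.8%). The loop of exons 53 to 60 had 24, 6 and 0 reads at day 3 and 66, 62 and 101 at day 6, and that of exons 34 to 35 had 0, 20 and 0 and then 66, 48 and 98. Summed over all 23 Pkhd1 circRNAs the reads were 57, 29 and 59 at day 3 and 198, 258 and 318 at day 6. The remaining 5 members of Pkhd1 had 25 to 60 reads each.

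Ghr, Adgrl3 and Patj followed Ttn and Pkhd1 in the number of members. Ghr, the growth hormone receptor gene, had 7, which held 576 of its 2739 reads at days 3 and 6, and had 12 circRNAs with 333 reads at day 0. Adgrl3, the gene of the adhesion receptor latrophilin 3, had 6 with 11.8% of 4700 reads, and 20 circRNAs with 465 reads at day 0. Patj encodes a scaffold protein of cell polarity and tight junctions, and its 6 members held 43.6% of 1139 reads. The Patj members began at exon 17 or further downstream, led by exons 21 to 25 (chr4:98505682-98523501) with 0, 34 and 14 reads at day 3 and 32, 39 and 62 at day 6. Of its 8 circRNAs at day 0, 7 ended at exon 17 or upstream of it, and the other one, exons 23 to 25, had 10 reads in 1 library.

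The start of the loop within the host differed between the sets. Of 1075 members placed on 1 transcript, 216 began at exon 2 (20.1%, Wilson 95% interval 17.8 to 22.6). By comparison it was 31.6% (28.2 to 35.2) among 674 circRNAs with no reads at day 3, 31.5% (28.6 to 34.5) among 941 with none at day 6, and 33.5% (32.2 to 34.8) among 4926 that were read at day 0 and in at least 3 of the 6 later libraries. Within the hosts of members the share was 24.2% (22.3 to 26.3) among 1775 circRNAs read at day 0 from 585 hosts, and 18.04% (15.5 to 20.9) among the 765 members of those 585 hosts. Over 527 hosts with both kinds, the mean share was 20.3% for members and 27.6% for the others. Members from hosts with circRNAs at day 0 began at exon 2 in 18.9% (16.5 to 21.5) and those from hosts without in 29.3% (22.0 to 37.8). Members share hosts and exon ends, so these intervals are too narrow, and no test of the difference was made.

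**Figure D3:**
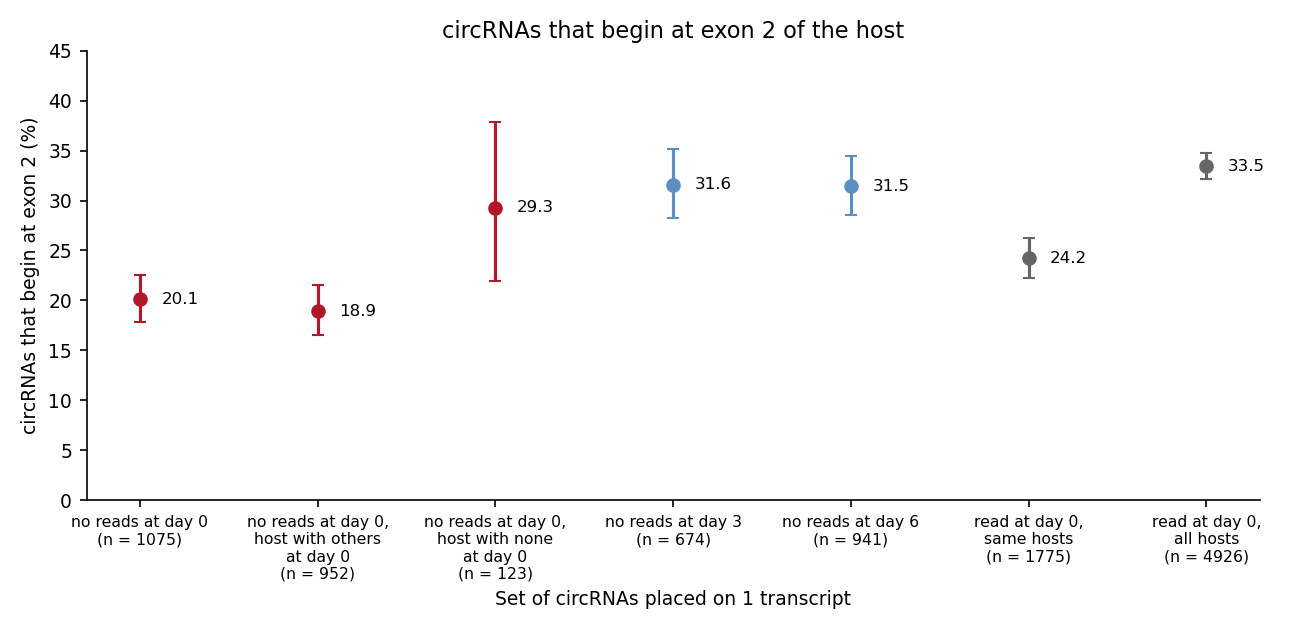
Share of circRNAs that begin at exon 2 of their transcript (vertical axis, percent) in sets of circRNAs placed on 1 transcript (horizontal axis, with n); points are shares and bars are Wilson 95% intervals that count circRNAs as independent. The set with no reads at day 0 stands at 20.1%, those empty at day 3 and day 6 at 31.6% and 31.5%, and circRNAs read at day 0 at 24.2% in the hosts of members and 33.5% in all hosts.

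Members also lay somewhat further downstream by the middle of the loop, and less so by its first exon. The middle of the loop stood at a median of 47.7% of the exons of its transcript, against 43.8% and 45.5% in the sets empty at days 3 and 6 and 41.7% for circRNAs of the same hosts read at day 0. In 317 of 527 hosts the members' mean middle was downstream of that of the day 0 circRNAs and in 201 it was upstream, with a median difference of 4.17 percentage points. By the acceptor exon, members were downstream in 265 of these hosts, upstream in 197 and equal in 65, with a median difference of 0.17 exons. The median acceptor exon was 5 both for members and for circRNAs of the same hosts read at day 0. Members spanned a median of 12188 bp of the genome, against 9036 and 9439 bp in the sets empty at days 3 and 6 and 9909 bp for circRNAs read at day 0. Their exon content was alike, with a median of 4 exons and 557 bases spliced, against 4 exons and 531 bases for circRNAs read at day 0. The intron upstream of the acceptor had a median of 7423 bp, against 7250 and 5518 bp in the sets empty at days 3 and 6 and 9709 bp for circRNAs read at day 0.

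By the authors' classes 1110 members were exonic (90.5%), 83 intronic (6.77%) and 33 intergenic (2.69%). Intergenic circRNAs made up 1.46% (0.815 to 2.59) and 1.23% (0.717 to 2.09) of the sets empty at days 3 and 6, against 1.92 to 3.76 as the interval of the members, and intronic ones 5.83% and 5.18% against 5.49 to 8.32. Of the exonic members 1079 (97.2%) had both ends on annotated exon edges, as did 10 intronic and 11 intergenic ones. Of the intronic members, 67 had 1 end at an exon edge and 6 had none. A circBase identifier, the mark of a circRNA catalogued before, was given for 38 members (3.10%, 2.27 to 4.23). In the sets empty at days 3 and 6 it was 1.99% (1.21 to 3.25) and 2.45% (1.68 to 3.57). Of all circRNAs of the table it was 2.72%. Of circRNAs read at day 0 and in at least 3 later libraries it was 13.0% (12.1 to 13.9). Their median level over days 3 and 6 was 53.8 CPM, against 23.7 CPM for members. Among those listed in exactly 3 of the 6 libraries it was 4.42% (3.44 to 5.67), against 2.25% (1.39 to 3.63) of such members. The medians there were 21.9 and 18.9 CPM. Among those in all 6 it was 23.3% (21.5 to 25.2), against 2 of 50 members, with medians of 163 and 91.3 CPM.

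Among the intronic members, after those of Etv6, stood Gm13483 (chr2:50355025-50406520) with 26, 68 and 62 reads at day 3 and 72, 57 and 142 at day 6. A shorter loop of Gm13483 with the same acceptor end had 51 reads at day 0 and 251 later. Exoc1, a subunit gene of the exocyst that tethers secretory vesicles, had no circRNA at day 0 and gave an intronic member (chr5:76542051-76546131) with 62, 31 and 0 reads at day 3 and 62, 31 and 58 at day 6. The highest intergenic member (chr2:77074836-77173607) overlaps Ccdc141 on the same strand and had 64, 42 and 60 reads at day 3 and 28, 40 and 72 at day 6. Another intergenic member (chr19:27386618-27399821) had 118 reads.

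Gene groups differed in how many of their hosts had members, and these counts come from the contrast that chose the set. Of 32 hosts in the list of myogenic regulators and fusion genes 14 had a member (43.8%), of 28 sarcomere hosts 5 (17.9%), of 26 calcium handling hosts 7 (26.9%), of 39 dystrophin complex and costamere hosts 7 (17.9%), and of 27 lipid and energy hosts 8 (29.6%), against 12.4% of all hosts. Of 49 hosts of cell cycle and mitosis 1 had a member, Ckap5 (2.04%), and of 47 hosts of DNA replication and repair 3 had one (Wrn, Xrcc5 and Brip1). Counted by circRNAs, members were 15 of 186 in the sarcomere list (8.06%) and 24 of 398 in the myogenic list (6.03%). Ttn alone gave 10 of these 15 sarcomere members, and 79 of the circRNAs in the table were its own. The lipid and energy list had 14 of 190 (7.37%) and the calcium list 11 of 284 (3.87%). In the dystrophin complex list members were 12 of 418 (2.87%), and in the cell cycle list 1 of 302 (0.331%). Of all hosted circRNAs 3.24% were members. In the fits described further on, the other circRNAs were called higher at day 6 in 6 of 14 tested myogenic hosts of members, 2 of 6 calcium, 2 of 5 dystrophin complex, 1 of 4 sarcomere, 2 of 18 membrane traffic, 2 of 17 ubiquitin, 1 of 13 kinase and 1 of 11 RNA binding hosts. They were called higher in 0 of 21 chromatin, 0 of 7 lipid and energy, 0 of 8 matrix, 0 of 3 replication and 0 of 1 cell cycle hosts, against 11.1% of all hosts of members and 3.32% of all hosts. At day 3 the calls were 2 of 14 myogenic, 2 of 5 dystrophin complex, and 1 each in the sarcomere, calcium, membrane traffic, RNA binding and matrix lists, against 8.01% and 2.45%.

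Lists with no particular tie to muscle also had members. Chromatin regulators had members in 21 of 61 hosts (34.4%), led by Kmt2c, Smarcc1 and Dnmt3a, and the ubiquitin system in 18 of 50, led by Herc2, Usp48 and Ube3c. Membrane traffic had 18 of 54 (33.3%), RNA binding and splicing 12 of 44 (27.3%), protein kinases 13 of 61 (21.3%) and the extracellular matrix 8 of 39 (20.5%). Counted by circRNAs, members made up 3.78% of the chromatin list, 3.77% of the ubiquitin list, 3.48% of membrane traffic, 3.83% of RNA binding, 3.28% of kinases and 1.97% of the matrix list, against 3.24% of all hosted circRNAs. The chromatin list held 662 circRNAs in 61 hosts and the ubiquitin list 637 in 50, against 36815 in all 6943 hosts. None of 8 hosts of quiescent or reserve cells had a member.

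Beside the members of Abca1, Ap3d1, Ttn, Dysf and Ryr1, which led their lists, further members of the lists had lower counts. Casq2, the cardiac and slow-muscle calsequestrin gene, gave exons 2 to 5 (chr3:102110240-102119990) with 0, 24 and 0 reads at day 3 and 28, 33 and 29 at day 6. Lrp4, which encodes the agrin receptor of the neuromuscular junction, gave exons 32 to 34 with 8, 45 and 39 reads at day 3 and 20, 7 and 5 at day 6. Celf2, a splicing regulator gene, gave a loop placed on exons 1 to 2 with 24, 12 and 0 reads at day 3 and 36, 22 and 0 at day 6. The acceptor end of this Celf2 loop matches the annotated start of its transcript, with no intron upstream, so the exon label is uncertain. Dnmt3a, the gene of a DNA methyltransferase, was listed in all 6 libraries with 28, 9 and 25 reads at day 3 and 16, 6 and 22 at day 6. Wrn, a helicase gene of DNA repair, gave exons 2 to 8 with 0, 65 and 17 reads at day 3 and 9, 30 and 6 at day 6.

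To see how the hosts moved apart from the members, members were removed and the other circRNAs of each host were summed and fitted over 4003 hosts, 737 of them hosts of members. This comparison uses the contrast of day 0 with later days that also chose the members, so its values are a description. At day 3 against day 0 edgeR's quasi-likelihood test called 59 hosts of members higher (8.01%) and 5 lower (0.678%) at an adjusted p under 0.05, where 2.45% of all hosts were higher and 0.799% lower. At day 6 against day 0 it called 82 higher (11.1%) and 6 lower (0.814%), where 3.32% of all hosts were higher and 1.67% lower. The median log2 fold change was 0.23 for hosts of members and -0.09 for all hosts at day 3, and 0.27 and -0.19 at day 6. Hosts of members had more reads to test, a median of 481 over the 9 libraries against 135 for other hosts, and all their calls under these settings lay among the 560 with more than 167 reads, 59 of which were higher at day 3 (10.5%), against 39 of 1438 other hosts above that depth (2.71%).

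The calls depended on the scaling and the tool. Over all hosts 98 were higher and 32 lower at day 3, against 70 and 49 by library size alone and 140 and 26 with the size factors of DESeq2. At day 6 the numbers were 133 and 67, against 92 and 91 and 179 and 52. The median of all hosts moved to -0.25 and 0.07 at day 3 and to -0.35 and -0.02 at day 6 under these 2 scalings, while the median of hosts of members stayed above 0, at 0.07 and 0.40 and at 0.12 and 0.44. Removing circRNAs that are empty at day 0 takes reads from later days alone. With only circRNAs read both at day 0 and later, 57 of 640 hosts of members were higher and 7 lower at day 3, where 3.09% of all 3044 hosts were higher and 1.31% lower. At day 6, 72 were higher and 9 lower, where 3.98% of all were higher and 2.83% lower.

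**Figure D4:**
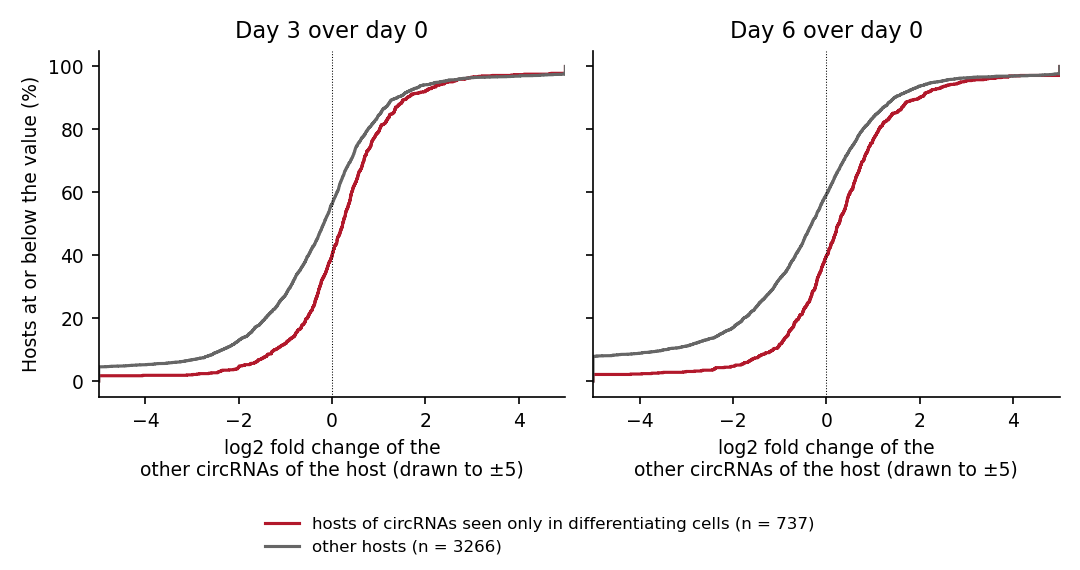
Cumulative share of hosts (vertical axis, percent) by the log2 fold change of their other circRNAs, members removed (horizontal axis, drawn to ±5), for day 3 over day 0 (left) and day 6 over day 0 (right), with hosts of members in red (n = 737) and other hosts in grey (n = 3266). The red curve lies to the right, with medians of 0.23 and 0.27 against -0.18 and -0.31.

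Among called hosts with the largest increases, Ttn and Ryr1 led by level. Apart from the members, Ttn was at 6676 ± 754 CPM at day 3 and 39.0 ± 39.8 CPM at day 0 (SD, n = 3 each), a log2 fold change of 7.51 ± 0.36 (SE). Ryr1 was at 3282 ± 606 CPM at day 6 and 238 ± 134 CPM at day 0 (3.92 ± 0.27). Hsf2bp, the gene of a protein that binds heat shock factor 2, was at 412 ± 55.7 CPM at day 3 and 9.29 ± 16.1 CPM at day 0, where all 7 reads came from replicate 3 (5.58 ± 0.71). Frmpd1 was at 1305 ± 264 CPM at day 6 and 83.7 ± 103 CPM at day 0 (4.15 ± 0.45), and the guidance factor gene Slit2 at 994 ± 71.6 CPM at day 3 and 146 ± 112 CPM at day 0 (2.86 ± 0.37).

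Akap6, which encodes an anchor of protein kinase A at the nuclear envelope of muscle cells, was at 305 ± 109 CPM at day 6 and 26.7 ± 28.2 CPM at day 0 (3.64 ± 0.96). The remaining circRNAs of Pkhd1 were at 205 ± 79.2 CPM at day 6 with no day 0 reads, at least 18.7-fold higher. In each of these hosts the libraries of the later day lay above all day 0 libraries. Single day 0 libraries set the size of several folds: without day 0 replicate 3 the log2 fold change was 8.45 for Ttn at day 3, 3.63 for Slit2 at day 3 and 5.88 for Frmpd1 at day 6, and Hsf2bp had no day 0 reads left. Without day 0 replicate 1 it was 4.79 for Akap6. Akap6 lost its call without day 6 replicate 1 and when only the 2 days were fitted.

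Some hosts of members were called lower in their other circRNAs. Lin54, a subunit gene of the complex that holds cell cycle genes silent, was at 827 ± 226 CPM at day 6 and 2749 ± 156 CPM at day 0 (log2 fold change -1.59 ± 0.22). Agtpbp1, a tubulin-modifying enzyme gene, was at 442 ± 99.6 CPM at day 6 and 1340 ± 329 CPM at day 0 (-1.46 ± 0.29), and Tasp1, a protease gene, at 3237 ± 235 CPM at day 6 and 6338 ± 628 CPM at day 0 (-0.83 ± 0.16). Hnrnpll, a splicing factor gene, was lower on both days (-1.39 ± 0.33 at day 3 and -1.30 ± 0.33 at day 6). Crim1 was lower at day 3 (-1.15 ± 0.32), and Ckap5 and Ide at day 6 (-1.04 ± 0.30 and -0.96 ± 0.26). Hnrnpll lost the call without day 0 replicate 1 on both days, and at day 3 also without day 3 replicate 1. Crim1 lost the call under 5 alternatives, Ckap5 under 7 and Ide under 4, the DESeq2 size factors among them each time.

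Epha4 and Brip1, picked after their values were seen, had members beside day 0 loops with few later reads, at low counts. Epha4 exons 4 to 5, a loop of an ephrin receptor gene, had 0, 0 and 18 reads at day 3 and 13, 0 and 12 at day 6, while exons 6 to 8 had 32, 16 and 43 reads at day 0 and 4 in all later libraries. Brip1 exons 7 to 14, of a helicase gene of DNA repair, had 39 reads at days 3 and 6 and none at day 0, while exons 4 to 9 had 77 at day 0 and none later.

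The rule also used the counts of days 6 and 3, but it treats these 6 libraries alike and does not set one day against the other. The values compared below are those that admitted the members, so differences and p-values describe the chosen set only. Members took 4.237%, 4.196% and 3.933% of reads at day 6, against 3.26%, 3.57% and 3.45% at day 3. The means were 4.12% ± 0.17 and 3.43% ± 0.16 (SD, n = 3 each), the groups did not overlap, and a two-sided exact permutation test gave p = 0.1, the smallest it can give with 3 libraries against 3. Without the 20 highest members the shares were 3.44% to 3.68% at day 6 and 2.98% to 3.29% at day 3, so the gap was not made by those 20 alone. The number of members listed was 628, 734 and 839 at day 6 and 730, 763 and 748 at day 3 (exact permutation p = 0.8).

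No single member passed at day 6 against day 3. Of 8153 circRNAs tested 923 were members, 0 of which were called by edgeR's quasi-likelihood test at an adjusted p under 0.05, where 0.0613% of all tested circRNAs were called. At an unadjusted edgeR p under 0.05 there were 23 members higher and 27 lower, together 5.42% of the members tested. Of all tested circRNAs it was 4.34%, with 1.77% higher and 2.58% lower. Members read on 1 day alone stand among these 23 and 27, such as loops of Pde10a and Gsk3b. They entered the set only through the day on which they are high. DESeq2 called 1 member, the Nos1 loop (log2 fold change 3.71 ± 1.02, adjusted p = 0.0444), and gave no adjusted p for 809 of the 923. In edgeR the Nos1 loop was at 278 ± 108 CPM at day 6 and 21.2 ± 18.4 CPM at day 3 (SD, n = 3 each), which gave 3.69 ± 1.25 on the log2 scale (adjusted p = 0.664 in edgeR).

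Of the 20 highest, 18 had a higher mean at day 6. The 20 were ranked by mean CPM over the same 6 libraries, and no circRNAs of equal level were set beside them. In 8 of them all day 6 libraries lay above all day 3 libraries in CPM, where 3.77% of all tested circRNAs did so. In none did they all lie below, where 5.36% did. The 8 were the loops of Abca1, Ap3d1, Nav2, Sh2d4b, Nos1 and Filip1 and both loops of Pkhd1. Pkhd1 exons 53 to 60 was at 262 ± 30.2 CPM at day 6 and 32.7 ± 39.8 CPM at day 3 (2.99 ± 1.23 on the log2 scale, adjusted p = 0.664 in edgeR). The exceptions among the 20 were the intronic Ryr1 loop, at 140 ± 51.7 CPM at day 6 and 203 ± 39.0 CPM at day 3, and the intergenic chr2:77074836-77173607, at 153 ± 23.8 and 176 ± 29.1 CPM. Over all 923 members tested, 58 (6.28%) lay wholly above and 48 (5.20%) wholly below. The set holds 36 members read at day 6 alone and 38 at day 3 alone, which lie wholly above or below by the rule. Those of them that were tested are among the 58 and 48, which are thus in part fixed by the rule. The median log2 fold change of the tested members was 0.13, against -0.09 for all circRNAs tested.

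**Figure D5:**
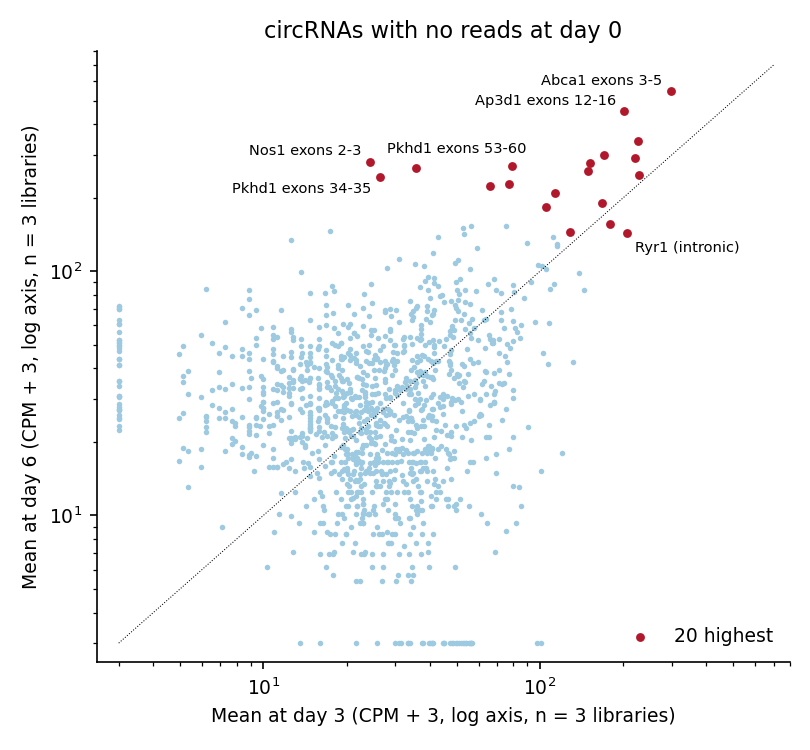
Mean level of each of the 1226 circRNAs at day 6 (vertical axis) and day 3 (horizontal axis), in CPM + 3 on log axes, means of 3 libraries; red points are the 20 highest and the dotted line marks equal levels. Of the 20, 18 lie above the line, with Nos1 and the 2 Pkhd1 loops far above it, and the intronic Ryr1 loop lies below it.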

How the data were processed

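The authors deposited 1 table of raw counts of back-splice reads per circRNA for 9 libraries of C2C12 cells, with the locus, class and host of each. The submitters' processing notes name BWA and GRCm38.p4 (mm10). Which caller and filters gave the circRNAs is not given in the sources used here. Counts were whole numbers of 2 or more, or 0, so single reads cannot be seen. As a check of the build, 86.8% of starts lay at exon edges of GENCODE M21.

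Members and gene lists were chosen with earlier results of these data known. Circles named are the 20 highest by mean CPM, the 3 highest of each list and of the intronic and intergenic classes, those at the limits of the rule, those of the 5 hosts with most members, and up to 8 called hosts per direction; others are said to be picked after their values were seen. Some items that this rule names are not reported here. Counts of all 9 libraries were fitted with the quasi-likelihood F-test of edgeR 4.0.16 (R 4.3.3), with TMM factors on whole-table totals and filterByExpr at a minimum count of 5 and a minimum total of 15, tested on simulated data. P-values were Benjamini-Hochberg adjusted over all features tested, with a threshold of 0.05. The SE of a fold is its size on the log2 scale over the root of F. Shares per library were compared by exact permutation (scipy 1.17.1). A floor is 3 reads per library. Alternatives were DESeq2 1.42.0, other scalings and filters, fits of 2 days, a replicate block, thinned reads, other limits of the rule, and leaving out each library.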

Additional observations from a re-analysis of the deposited data

How the results depend on the processing

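The size of the set followed its limits: 3485 circRNAs with at least 2 of the 6 libraries, 516 with 4, 198 with 5 and 50 with all 6, and 806 to 1897 when single libraries were left out. With at least 4 libraries 4.26% had a circBase identifier. DESeq2 called 1 member at day 6 against day 3, and edgeR called 0 under every other alternative, leaving out each library included. For the other circRNAs of hosts of members, DESeq2 called 133 higher and 11 lower at day 3 (6.12% and 1.55% of all hosts) and 128 higher at day 6 (6.395% of all hosts), and fits of only the 2 days called 47 of 680 higher at day 6 (2.19% of all hosts). Leaving out single libraries gave 56 to 69 higher and 3 to 6 lower at day 3, and 66 to 87 higher and 4 to 10 lower at day 6. The cause of these differences was not tested. The number of members listed at day 6 minus day 3 was -13.3 and ran from -66 to 39.5 when libraries were left out, reversed to 39.5 without day 6 replicate 1. The share of reads in members kept its direction (0.613 to 0.792 percentage points). Of the named hosts' values 460 kept their side of the threshold, 25 lost it and 0 reversed. For the headline results 113 values stayed the same, 16 moved and 1 reversed. Replicate numbers did not pair the libraries (correlations of deviations -0.031 to 0.010). With the replicate block 65 hosts were higher and 6 lower at day 3, 88 higher and 10 lower at day 6, and 0 members were called at day 6 against day 3. A listed member had a median of 12 reads; with a minimum count of 10, 0 of 429 members were called at day 6 against day 3.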
